A study of Mus musculus with 2 samples.

Results

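The genes examined here are the receptors and co-receptors of vascular endothelial growth factor (VEGF): Flt1, Kdr and Flt4, which encode VEGF receptors, and Nrp1 and Nrp2, which encode the neuropilin co-receptors. They were taken by name, and every array probe set that the platform annotation assigns to exactly 1 of them was used, which gave 15 probe sets for 5 genes out of 34958 probe sets for 18194 genes. No member probe set was also assigned to another gene. CD34-positive tumour epithelial cells were sorted by flow cytometry from skin tumours and profiled on Affymetrix mouse 3′ expression arrays, with 1 array for a wild-type mouse and 1 for a mouse with VEGF gain of function, K14CreER:Rosa-VEGF-164. This mouse carries a Cre recombinase that is controlled by a ligand and driven by the keratin 14 promoter, which is active in basal epidermal cells, together with a VEGF-164 transgene in the Rosa locus. Both genotypes received the carcinogen DMBA at postnatal days 23, 25 and 27 and again at 7 weeks of age, with the tumour promoter TPA given repeatedly. The labels used here state neither the number of animals or tumours behind each sorted sample nor the time at which the recombinase was switched on. With 1 array per genotype there was no replicate error and no test between genotypes, so each difference below is a single measurement of these 2 arrays. The gained gene itself, Vegfa, had a lower signal on the array labelled VEGF, 397 against 804, and its other probe set gave a log2 ratio of -1.26. Whether the transgene's product is read by them is not recorded in the annotation. The label is thus not checked by the data, and every direction below follows it.

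VEGF signals through receptor tyrosine kinases that dimerise when the ligand binds. Kdr (VEGFR2) carries most of the mitogenic signal of VEGF-A in blood vessels. Flt1 (VEGFR1) binds VEGF-A, VEGF-B and placental growth factor, and also exists as a soluble form that traps ligand. Flt4 (VEGFR3) binds VEGF-C and VEGF-D and is best known from lymphatic vessels. The neuropilins have no kinase of their own. They bind heparin-binding VEGF isoforms, VEGF-164 among them, and class 3 semaphorins, and they work together with VEGF receptors or with plexins. Neuropilins are made by neurons, endothelium, mesenchyme and many epithelial tumours, whereas the receptor kinases are mostly endothelial.

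The RefSeq promoters of the neuropilin genes (GRCm38.p6, 250 bases before to 50 after the gene start) are shown because the neuropilins gave the largest positive differences described below. Capitals mark each match to the GC box GGGCGG on either strand. The Nrp2 promoter lies at chr1:62703067-62703366 on the plus strand and the Nrp1 promoter at chr8:128358823-128359122 on the plus strand.
Nrp2: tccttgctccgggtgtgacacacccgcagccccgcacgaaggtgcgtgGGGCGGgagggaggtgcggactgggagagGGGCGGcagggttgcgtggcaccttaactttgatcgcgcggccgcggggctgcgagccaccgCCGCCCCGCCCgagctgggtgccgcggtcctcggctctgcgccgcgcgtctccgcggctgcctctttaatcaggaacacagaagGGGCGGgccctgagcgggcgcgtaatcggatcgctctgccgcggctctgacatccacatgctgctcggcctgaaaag
Nrp1: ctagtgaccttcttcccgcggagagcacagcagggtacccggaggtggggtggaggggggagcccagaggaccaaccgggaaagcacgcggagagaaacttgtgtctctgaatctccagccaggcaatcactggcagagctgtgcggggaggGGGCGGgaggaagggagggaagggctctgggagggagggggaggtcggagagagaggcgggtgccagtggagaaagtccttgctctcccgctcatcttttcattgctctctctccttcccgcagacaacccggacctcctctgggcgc
The Nrp2 window held 5 matches to the GC box, of which a neighbouring pair shares a base, and the Nrp1 window held 1. The Flt1 and Flt4 windows held 3 each and the Kdr window 2, and 35.7% of the 32851 RefSeq promoters of this length hold at least 1. The letters G and C made up between 60.7% (Kdr) and 70.7% (Nrp2 and Flt1) of the member windows, against a median of 52.7% over all promoters. The nuclear receptor half-site AGGTCA, found in 16.3% of promoters, occurred once in Nrp1 and in none of the other members. The ETS core GGAAG, found in 71.4%, had 4 matches in Nrp1, 3 in Flt1, 1 each in Kdr and Flt4 and 0 in Nrp2. The TATA box TATAAA (13.6% of promoters) and the cAMP response element TGACGTCA (1.79%) were each matched 1 time in Flt1 and in no other member. The E-box CANNTG (72.3%) was matched 1 time each in Nrp2, Kdr and Flt4 and not in Nrp1 or Flt1, and the hypoxia response core ACGTG (19.6%) in none of the 5. A match to ACGTG overlaps an E-box match where the letters read CACGTG. Both strands were searched for all 7 motifs, and a match describes letters only, not a bound site.

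The deposited values are log2 signals. Each array's background was taken as the 90th percentile of 80 probe sets for olfactory and vomeronasal receptor genes, 19.8 on the wild-type array against 11.3 on the VEGF-labelled array, and lower signals were raised to it. A log2 ratio is the VEGF-labelled array minus the wild-type array. It is a fold where both signals lie above background and a bound, written "at least", where only 1 does. Each gene is represented by its main probe set, the one whose log2 signal averaged over the arrays is highest. The only error that could be measured was the disagreement between the 2 brightest probe sets of a gene, over 4887 genes. From it, the log2 ratio of 1 probe set had an SD of 0.50 in the dimmest tertile of signal, 0.42 in the next and 0.32 in the brightest. It covers neither animals, tumours and sorts nor labelling effects shared by a gene's probe sets. Of the 15 member probe sets, 11 lay in the lowest tertile and 1 in the highest, and signals of different probe sets are not compared with each other.

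By main probe sets, both neuropilin genes lay above background on each array and were higher on the VEGF-labelled array. With the same choice of probe sets, Nrp2 was 3.71-fold higher, Nrp1 1.89-fold, Flt1 1.52-fold and Kdr 1.39-fold, and Flt4 was at least 1.84-fold lower, a bound that nearly vanished with the higher floor used on both arrays (log2 ratio -0.075). A difference of 2-fold or more is called here passing 2-fold. Of the 5 genes, 1 passed 2-fold upward and 0 downward on the VEGF-labelled array, where 3.87% of 12199 genes passed it upward and 8.53% downward. A ratio above 0 was found for 4 of the 5 genes and for 47.1% of all genes. By probe set, 10 of the 15 lay above background on both arrays, against 55.4% of all named probe sets. A further 2 gave a bound and 3 gave no fold. Of the 12 with a fold or bound, 4 passed 2-fold upward (3.53% of all such probe sets), 0 downward (10.3%) and 10 lay above 0 (45.3%). In bulk sorted cells, a lower share of cells that use a gene and less of its RNA per cell cannot be told apart.

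**Figure D1:**
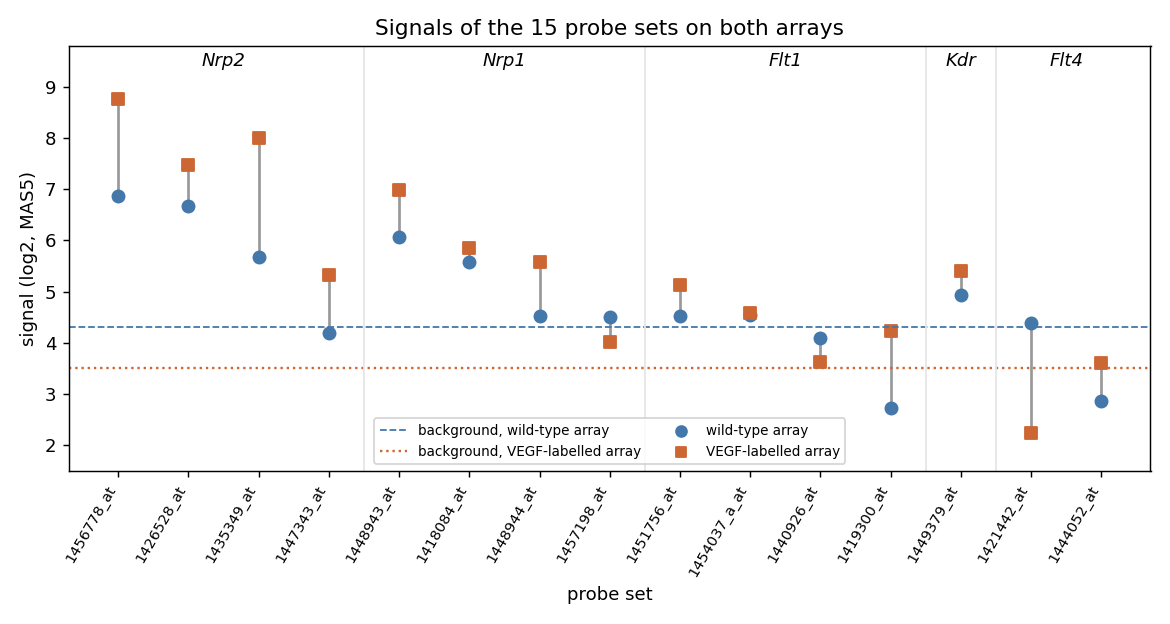
MAS5 log2 signal (vertical axis) of each of the 15 member probe sets (horizontal axis, grouped by gene) on the wild-type array (blue circles) and the VEGF-labelled array (orange squares), with horizontal lines at each array's background. All 4 Nrp2 probe sets and 3 of the 4 Nrp1 probe sets are higher on the VEGF-labelled array, and 2 probe sets of Flt1, 1 of Flt4 and 1 of Nrp2 lie below the wild-type background line on the wild-type array.

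Nrp2 encodes neuropilin-2, a co-receptor for VEGF-A, VEGF-C and the semaphorin Sema3f. Its main probe set, 1456778_at, had a signal of 118 on the wild-type array against 436 on the VEGF-labelled array, a log2 ratio of 1.89 where the SD between probe sets at this signal was 0.32. Probe set 1435349_at had 51.4 and 256, a log2 ratio of 2.32. Probe set 1426528_at had 102 and 179, a log2 ratio of 0.80, the smallest of the 4. Probe set 1447343_at had 18.4, just below background, and 40.3, at least 2.03-fold higher. The VEGF-labelled array was thus the brighter array for all 4 probe sets, and 3 of the 4 passed 2-fold. Over the 4, with the bound entered at its limit, the log2 ratio was 1.51 ± 0.71 (mean ± SD over probe sets, which share the same RNA and are not replicates), with a median of 1.46. The 3 above background on both arrays had a median of 1.89. Fibroblasts also make neuropilins. Of 9 fibroblast markers, 5 had a log2 ratio above 0 and 4 below, and their summed signal was 1234 on the wild-type array against 2715 on the VEGF-labelled array. The part of such cells in the neuropilin values was not tested.

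The Nrp2 probe sets agreed in direction and differed in size. The 3 above background on both arrays spanned 1.51 log2 units, wider than the median span of 0.78 over 2000 genes that had 3 or more such probe sets, and 12.1% of those genes spanned as much. In 13.2% of the 2000 genes all ratios lay above 0. A smallest ratio at least as high as that of Nrp2 was seen in 17 of the 2000, or 0.85%, Nrp2 included, and a median as high in 8, or 0.40%. By main probe sets, 62 of 11234 genes above background on both arrays, or 0.552%, had a ratio at least as high as Nrp2, itself included. RefSeq lists 6 transcripts of Nrp2, and the annotation does not say which of them each probe set reads. The 3 probe sets with a listed source name 3 different source sequences.

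Nrp1 encodes neuropilin-1, a co-receptor for VEGF-164 and for the semaphorin Sema3a. Its main probe set, 1448943_at, had a signal of 67.1 on the wild-type array against 127 on the VEGF-labelled array, a log2 ratio of 0.92 with an SD between probe sets of 0.42 at this signal. Probe set 1448944_at had 22.9 and 47.8, a log2 ratio of 1.06, the only Nrp1 probe set past 2-fold. Its wild-type signal was only 1.15 times background, and 6 of the 80 olfactory and vomeronasal receptor probe sets were as bright there. Probe set 1418084_at had 47.6 and 57.9, a log2 ratio of 0.28, within the SD of 0.50 for its signal. Probe set 1457198_at went the other way, with 22.7 and 16.2, a log2 ratio of -0.49. It too was near background, at 1.14 times on the wild-type array and 1.43 times on the VEGF-labelled array. Thus 3 of the 4 were higher on the VEGF-labelled array and the dimmest was lower, also by less than the SD. Of these 4 probe sets, 3 list the same source sequence, and the one that went the other way lists another.

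Over its 4 probe sets the Nrp1 log2 ratio was 0.44 ± 0.71 (mean ± SD over probe sets), with a median of 0.60. The span of 1.55 was reached by 11.0% of those 2000 genes with several probe sets. By main probe sets, 477 of 11234 genes, or 4.25%, had a ratio at least as high as that of Nrp1. The main ratio stayed below 2-fold under every setting tried but one, since it reached 1.04 when ratios were centred on the median of all probe sets. For Nrp2 every setting left the main ratio above 2-fold, between 1.46 and 2.01. The choice of floor could not change the main ratio of either gene.

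**Figure D2:**
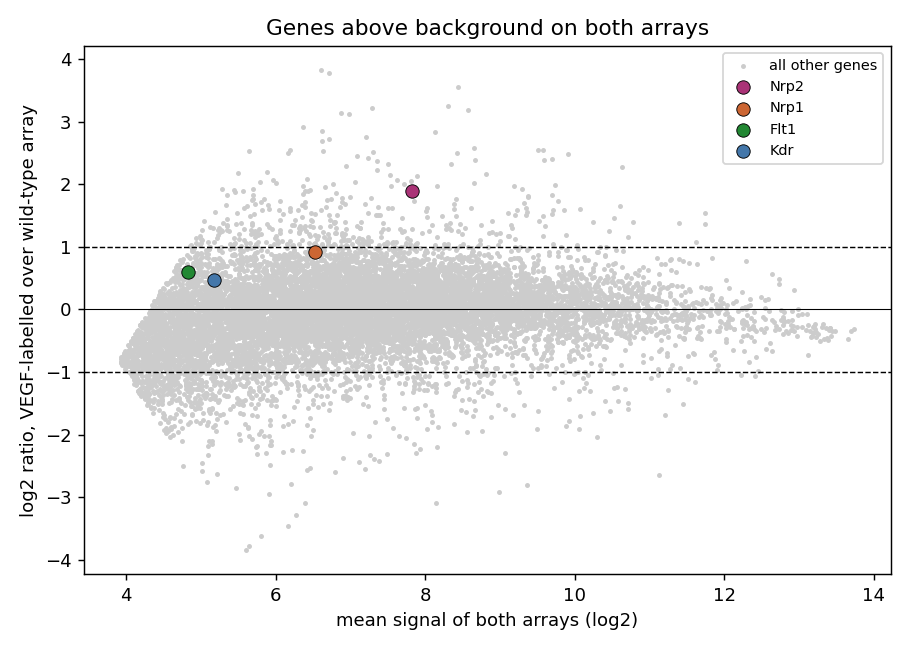
Log2 ratio of the VEGF over the wild-type array (vertical axis) against the mean log2 signal of both arrays (horizontal axis) for genes above background on both arrays, 1 point per gene by its main probe set, with dashed lines at 2-fold. Nrp2 stands at 1.89 above the upper line, Nrp1 at 0.92 just under it, and Flt1 and Kdr at the dim end at 0.60 and 0.47; Flt4, below background on 1 array, is not drawn.

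Kdr, which encodes VEGFR2, was read by 1 probe set, with 30.6 on the wild-type array against 42.5 on the VEGF-labelled array, a log2 ratio of 0.47 within the SD of 0.50 for its signal. Its signal was 1.54 times background on the wild-type array and 3.75 times on the VEGF-labelled array. On the wild-type array 2 of the 80 olfactory and vomeronasal receptor probe sets were as bright, and on the VEGF-labelled array 0 were.

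Flt1, which encodes VEGFR1, had 4 probe sets, and only 2 were above background on both arrays. Its main probe set, 1451756_at, had 23.1 and 35.0 on the wild-type and VEGF-labelled arrays, a log2 ratio of 0.60, and 1454037_a_at had 23.3 and 23.8, a ratio of 0.03. The other two did not reach the wild-type background, 1440926_at with 17.0 and 12.3 and 1419300_at with 6.59 and 18.6, and allowed no fold. On the wild-type array, between 6 and 33 of the 80 olfactory and vomeronasal receptor probe sets were at least as bright as a Flt1 probe set, and between 0 and 5 on the VEGF-labelled array.

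Flt4, which encodes VEGFR3, was at the background level. Its main probe set, 1421442_at, had 20.9 on the wild-type array, 1.05 times background, and 4.73 on the VEGF-labelled array, below background, so that it was at least 1.84-fold lower. Its other probe set, 1444052_at, had 7.26 and 12.2 and went the other way without allowing a fold. No direction can therefore be read for Flt4.

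Low signals as a whole ran lower on the VEGF-labelled array. The median log2 ratio of genes above background on both arrays was -0.28 in the lowest tertile of signal, against 0.05 in the middle and 0.06 in the highest. Such genes had to exceed 19.8 on the wild-type array but only 11.3 on the VEGF-labelled array. This difference by itself favours negative ratios at the dim end. Against that lowest tertile of 4295 genes, 397 genes, or 9.24%, had a ratio at least as high as Flt1 and 528, or 12.3%, at least as high as Kdr. Among all 11234 genes above background on both arrays, 10.7% had a ratio at least as high as Flt1 and 15.4% as high as Kdr. With quantile normalization the Flt1 ratio was 0.94 and the Kdr ratio 0.77, and with 50 added to signals instead of a floor they were 0.32 and 0.29. The direction for Flt1 and Kdr held in each setting that gave a value, although the choice of floor could not change it. Their size moved with the scaling of the dim end.

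**Figure D3:**
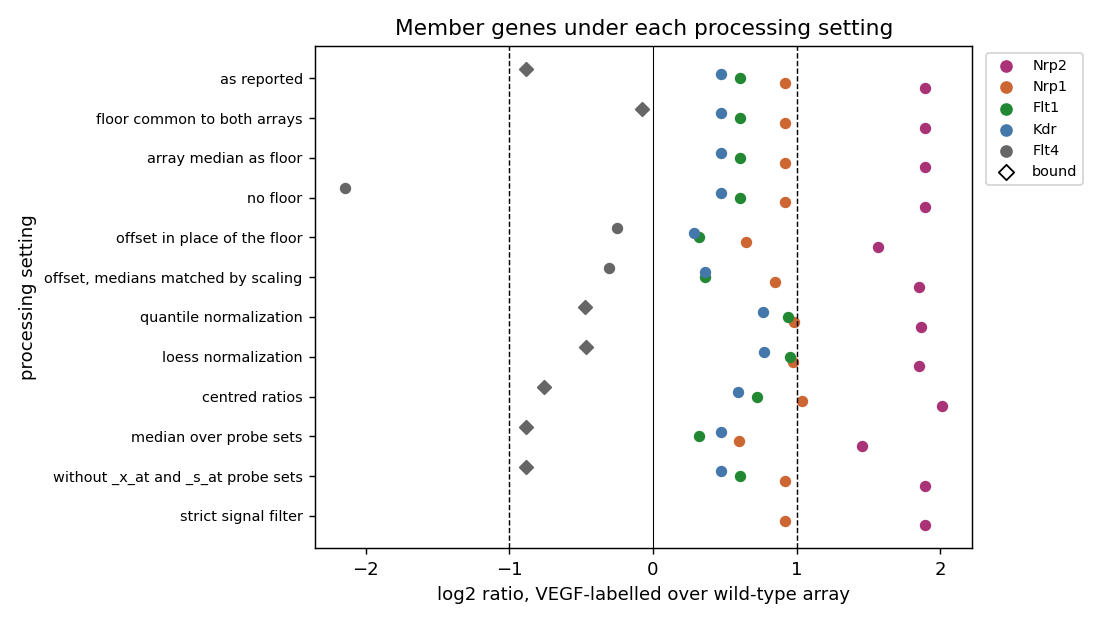
Log2 ratio of the VEGF over the wild-type array (horizontal axis, dashed lines at 2-fold) for each member gene under the reported setting and each alternative (vertical axis), with circles for folds and diamonds for bounds. Nrp2 lies right of the upper 2-fold line in every row, Nrp1, Flt1 and Kdr between 0 and that line except Nrp1 with centred ratios, and Flt4 moves from -2.14 to -0.075.

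The ligand genes of these receptors were on balance lower. Of 5 VEGF family ligand genes, 4 had a fold, 0 passed 2-fold upward and 2 downward, and the median was -0.61 against -0.04 over all genes. Vegfa, the ligand of Kdr, Flt1 and both neuropilins, had a log2 ratio of -1.02, as given at the start. Pgf, the placental growth factor gene and a ligand of Flt1, had 824 and 96.3 (-3.10). Vegfd, a ligand of Flt4, had 41.2 and 67.0 (0.70), Vegfb, a ligand of Flt1, 87.7 and 76.1 (-0.20), and Vegfc, the other Flt4 ligand, was below background on both arrays. The median of this list was -0.068 with the offset of 50.

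Class 3 semaphorins, the other ligand family of the neuropilins, were mostly lower. Of 7 genes, 6 had a fold or bound, 0 passed 2-fold upward and 2 downward, and the median was -0.53. Sema3a, whose receptor is Nrp1 with a plexin, had 28.3 on the wild-type array against 11.7 on the VEGF-labelled array (-1.27), the latter close to background. Sema3g, measured above background for the wild-type mouse alone, was at least 2.17-fold lower. Sema3c had 403 and 583 (0.53), and Sema3f, the Nrp2 ligand, 240 and 233 (-0.04), while its other two probe sets gave 0.43 and 0.45. With the floor of 19.8 used on both arrays, Sema3a was at least 1.42-fold and Sema3g at least 1.24-fold lower, so that 0 of the list passed 2-fold, and the median was -0.26. The list median was positive, at 0.25, when only probe sets with a mean signal of 4 times background or more were kept. That median rests on Sema3c and Sema3f alone. Of the 5 plexin genes that pair with neuropilins or bind these semaphorins, 0 were 2-fold apart in either direction by main probe sets. Their median was -0.51, and Plxna1 had 173 and 225 (0.38). Plxna2 had a main log2 ratio of -0.77, with its other probe sets between -1.24 and -0.48.

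Genes for proteins that bind neuropilins or act beside them were on balance higher. Of 8, all above background on both arrays, 2 passed 2-fold upward and 0 downward, 6 lay above 0 and the median was 0.49. Met, the hepatocyte growth factor receptor gene, had 337 on the wild-type array against 780 on the VEGF-labelled array (1.21), although its other probe set gave 0.24. L1cam, a cell adhesion molecule that associates with Nrp1, had 82.0 and 176 (1.10). Gipc1, whose protein binds the tail of neuropilins and links them to endocytic traffic, had 124 and 231 (0.89). Itgb1, the β1-integrin gene, was nearly equal at 909 and 947 by its main probe set. Its 2 other measured probe sets gave log2 ratios of -0.95 and 0.09.

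By main probe sets, genes further down the receptors lay within 2-fold. Of 23 genes of VEGF receptor signalling, 18 had a fold, 0 were 2-fold apart in either direction and 11 had a ratio below 0, with a median of -0.13. Hspb1, which encodes a small heat shock protein phosphorylated downstream of VEGF receptors, had 4100 on the wild-type array against 4283 on the VEGF-labelled array. Other probe sets of 3 of these genes passed 2-fold downward, with log2 ratios of -2.15 for Akt1 (main 0.52), -1.21 for Pik3r1 (main -0.93) and -1.02 for Plcg1 (main -0.48). In the separate list of receptor trafficking and phosphatases, 1 of 7 passed 2-fold downward and 0 upward, around a median of -0.06. That gene was Efnb2, which encodes ephrin-B2, a regulator of VEGF receptor uptake (607 and 266, log2 ratio -1.19, with its other measured probe set at 0.17).

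Genes that VEGF induces in endothelium did not go one way. Of 10 with a fold or bound, 0 passed 2-fold upward and 2 downward, and the median was -0.0025. Apln, the apelin gene, had 130 on the wild-type array against 29.0 on the VEGF-labelled array (-2.16), and Egr3, an early growth response gene, 2072 and 548 (-1.92). Nr4a1, an early response nuclear receptor gene, had 3764 and 1959 (-0.94). Among related class III receptor tyrosine kinases, 1 of 4 passed 2-fold downward and 0 upward, around a median of -0.45. Kit, the stem cell factor receptor gene, was above background on the wild-type array alone, at least 2.38-fold lower, but only at least 1.36-fold with the floor common to both arrays, where 0 of the list passed 2-fold. Csf1r had 47.8 and 27.1 (-0.82), and its other measured probe set gave -1.10.

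Of 11 transcription factor genes known from vascular receptor genes, 6 had a fold, 1 passed 2-fold upward and 0 downward, around a median of 0.04. Nr2f2, a nuclear receptor gene known to act upstream of Nrp2 in lymphatic endothelium, had 63.4 on the wild-type array against 142 on the VEGF-labelled array (1.17), but its other measured probe sets gave 0.09 and 0.25. Hif1a, the hypoxia-inducible factor gene, had 5236 and 2838 (-0.88). Among 63 genes of these pathway lists above background on both arrays, the nearest to Nrp2 in log2 ratio over the 2 arrays were Met, Nr2f2 and L1cam, each at least 0.68 below it. Nearest to Nrp1 were Ets1 (0.90), Gipc1 (0.89) and Adamts1 (0.98). Nearest to Flt1 were Tgfbr1, Map2k2 and Sema3c, and nearest to Kdr Foxc2, Dusp5 and Shb, all within 0.07. A likeness over 2 arrays is a likeness of a single ratio.

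**Figure D4:**
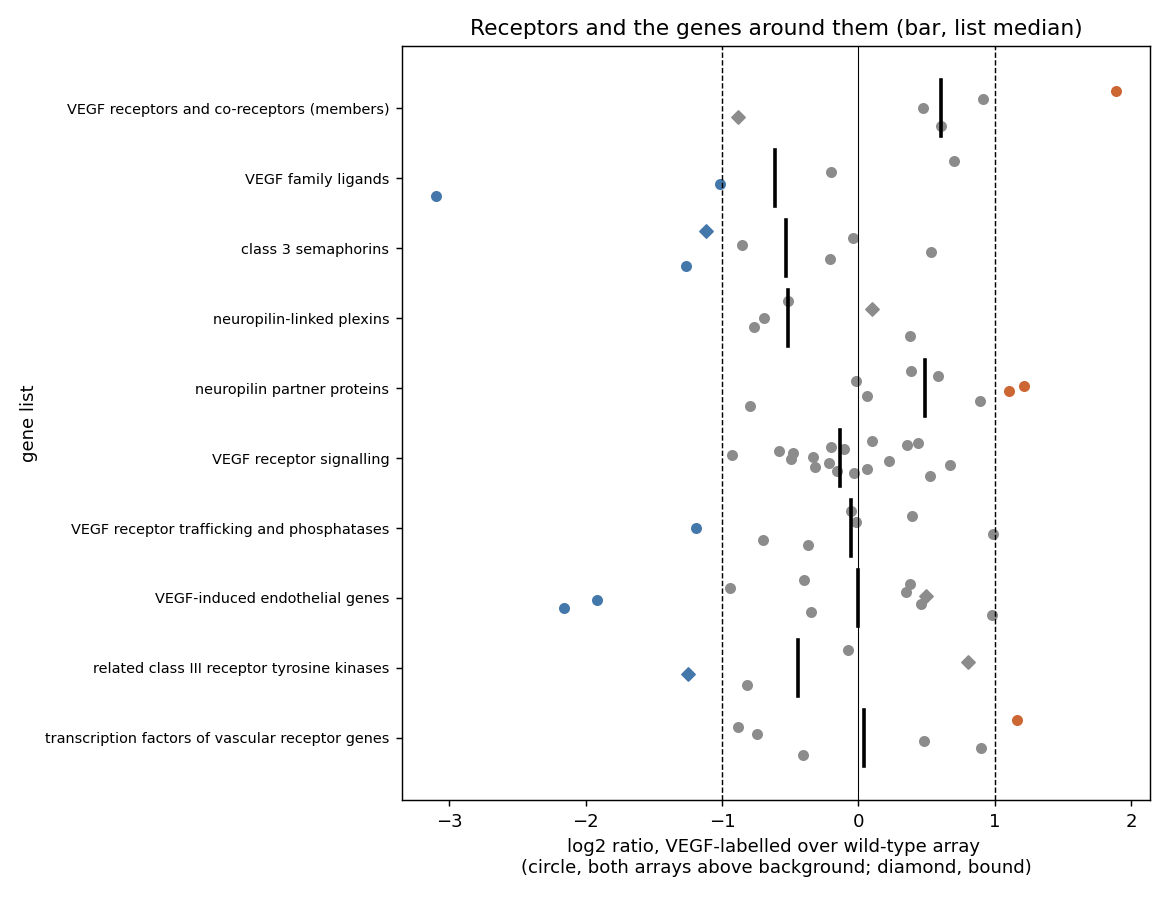
Log2 ratio of the VEGF over the wild-type array (horizontal axis, dashed lines at 2-fold) for genes with a fold (circles) or bound (diamonds) in the member list and each of 9 pathway lists (vertical axis), coloured orange past 2-fold upward and blue past 2-fold downward, with a black bar at the list median. Of these lists, that of the members has the highest median, 0.60, and the partner list follows at 0.49, while ligands, semaphorins and plexins have medians between -0.61 and -0.51.

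Markers of the sorted cells and of other cell types were read on the same arrays. All 8 keratinocyte and sort markers were above background on both arrays, among them Krt14 (8990 on the wild-type array against 8571 on the VEGF-labelled array), Krt5 (8352 and 7875), Itga6 (3952 and 2421) and Cdh1 (2320 and 3005). Krt15, a keratin gene of basal and hair follicle stem cells, was 2.81-fold lower (2806 and 999), and Trp63, a basal epithelial transcription factor gene, had 2706 and 1587, with its other probe sets between -2.52 and -0.37. Cd34, the sort antigen gene, had 430 and 751. Of 16 endothelial markers, 6 were above background on the wild-type array and 12, those 6 included, on the VEGF-labelled array, whose background was lower, and the summed signal was 361 on the wild-type array against 374 on the VEGF-labelled array. The brightest were Eng (66.4 and 54.4), Egfl7 (54.6 and 53.2), Plvap (48.7 and 57.6) and Esam (42.9 and 26.9). The 3 other measured Egfl7 probe sets gave log2 ratios between -0.0043 and 1.29. Tek, Tie1, Vwf and Icam2 were below background on both arrays, Cdh5 above it on both (27.3 and 16.8), and no marker was at 0. Of the 9 endothelial markers with a fold or bound, 4 had a log2 ratio above 0 and 5 below, with a median of -0.04. Erg (6.11 and 13.4), Sox18 (7.60 and 13.1) and Robo4 (14.6 and 19.6) passed only the lower VEGF-labelled background and allowed no fold. Emcn (4.57 and 27.2) and Cldn5 (13.2 and 29.8) were above background on the VEGF-labelled array alone. So was Pecam1, whose product was stained for the sort (3.07 and 22.0). The part of endothelial cells in the Flt1 and Kdr values was not tested. Of 5 measured lymphatic markers, 3 were above background on either array (Pdpn with 532 and 761, Lyve1 with 27.1 and 43.8, Reln with 24.4 and 10.4, whose bound fell under 2-fold with the common floor), and Prox1, the defining one, on neither. The other measured Lyve1 probe set went the other way and gave -0.57. Pdpn is also made by basal keratinocytes.

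The fibroblast markers split 5 to 4 between higher and lower. Of the 9, all measured, 2 passed 2-fold upward and 1 downward, around a median of 0.80, and their summed signal was 1234 on the wild-type array against 2715 on the VEGF-labelled array. Col3a1 had 490 and 1235, Col1a2 324 and 942, Col1a1 135 and 236 and Lum 68.7 and 122, whereas Thy1 (58.1 and 25.1), Dcn (91.3 and 72.3), Fap (20.5 and 12.5) and Pdgfrb (36.8 and 34.9) were lower. Pdgfra, whose product was likewise stained, had 9.86 (under background) and 34.7. No marker was at 0. Of 9 pericyte and smooth muscle markers, 1 passed 2-fold upward and 2 downward, and their summed signal went from 2293 to 1414. The brightest were Acta2 (1621 and 755), Notch3 (246 and 228), Rgs5 (219 and 158) and Mcam (56.4 and 169). Des, the desmin gene, had 32.5 and 5.39, at least 2.87-fold lower, or at least 1.64-fold with the common floor.

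Markers of other cell types known to express neuropilins were read too. Of 14 leukocyte and macrophage markers, 7 were above background on either array, with a summed signal of 339 on the wild-type array against 345 on the VEGF-labelled array. Of the 6 with a fold or bound, 4 had a log2 ratio above 0 and 2 below. Those below were Csf1r (47.8 and 27.1) and Adgre1 (22.3 and 2.41), the latter a bound with a wild-type signal close to background. The brightest were Cd14 (81.7 and 126), Cd68 (43.4 and 69.0), Csf1r and Lyz2 (32.8 and 35.9), while Ptprc, which encodes the sort antigen CD45, had 14.4 (under background) and 17.3. Of 3 measured Schwann and neural markers, Ncam1 (48.6 and 21.0) and S100b (37.6 and 19.3) were lower and Sox10 (18.4 and 33.7) was above background only on the VEGF-labelled array, with a summed signal of 105 and 74.1. The other measured Sox10 probe set went the other way and gave -1.20. Of 5 platelet markers, 4 were above background on either array (Itga2b with 69.3 and 39.4, Gp1bb, Treml1 and Pf4), with a summed signal of 145 and 119. No leukocyte, Schwann or platelet marker was at 0.

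**Figure D5:**
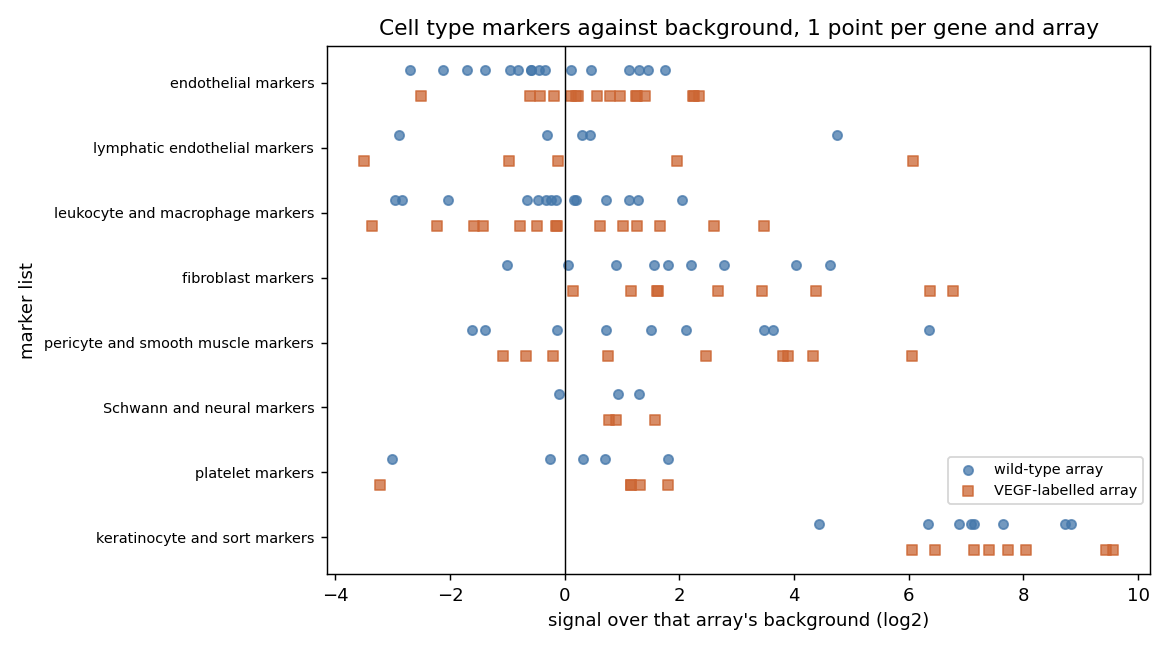
Log2 signal over the array's own background (horizontal axis, 0 is background) for each marker gene on the wild-type array (blue circles) and the VEGF-labelled array (orange squares), by list (vertical axis). Keratinocyte and sort markers all lie far to the right, and endothelial and leukocyte markers scatter around 0. Several fibroblast markers lie further right on the VEGF-labelled array, as do several keratinocyte markers. The lower background of that array (11.3 against 19.8) by itself moves its points to the right, so these shifts are not log2 ratios.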

How the data were processed

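Expression was measured with 1 array per genotype, and the deposited values are log2 signals for 45101 probe sets, of which 64 are controls. The submitters' processing notes name MAS5; no version, scaling target or detection call is stated there. On the linear scale the 2% trimmed mean was 100.04 for each array, which puts them on a common scale, while the medians were 22.6 (wild type) and 17.3 (VEGF).

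By the platform annotation, 34958 probe sets had 1 gene, 932 several and 9211 none. Of the single-gene ones, 34754 matched the RefSeq table (GRCm38.p6) by gene ID, which changed 0 symbols. Of 23 VEGF receptor signalling genes 19 had a probe set of their own. Background, floor, fold and the choice of main probe set are as given above. Ratios and counts were computed with pandas 2.3.3 and numpy 2.4.6 under Python 3.11.15, and the steps were tested on simulated arrays with known ratios. The simulated shifts were set only in genes brighter on the wild-type array than any member probe set. Recovery of shifts in the dimmer range of the members was therefore not tested. There is no p-value, since there is 1 array per group, and the number of arrays limits the precision.

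The members and gene lists were chosen with earlier results of these data known. Named were all members, list genes at least 2-fold apart, the brightest gene of each pathway list, markers above background (the 4 brightest where more than 5), and the 3 genes nearest in ratio to each member with a fold. Vegfb, Vegfc, Vegfd, Sema3f, Gipc1, Cd34 and the named markers below background or stained in the sort were added after their values were seen, as were Pik3r1, Plcg1, Akt1, Trp63, Dcn, Fap, Pdgfrb, Cdh5, Emcn, Cldn5, Erg, Sox18, Robo4, Plxna2 and Adgre1. Promoter sequences are from RefSeq, matched by symbol for all 5 members. The alternatives were a common floor, array medians as floor, no floor, an offset of 50 (medians matched by addition), quantile and loess normalization, centred ratios, the median over probe sets, dropping _x_at and _s_at probe sets, and a strict filter that kept only probe sets above background on both arrays whose mean signal reached 4 times background.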

Additional observations from a re-analysis of the deposited data

How the results depend on the processing

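The directions of Nrp1, Nrp2, Flt1 and Kdr were the same under every alternative that gave a value, with main log2 ratios between 0.60 and 1.04 for Nrp1, 1.46 and 2.01 for Nrp2, 0.32 and 0.96 for Flt1 and 0.29 and 0.77 for Kdr. The floor choices and the dropping of _x_at and _s_at probe sets could not change these ratios. The main probe sets lay above every floor and carry no such suffix. The strict filter could only keep or remove a ratio, and centring added the same amount to each. Nrp2 moved by more than the SD between probe sets with the offset of 50 (1.57) and with the median over its probe sets (1.46), staying above 2-fold. Flt4 moved from -0.88 to -0.075 with the common floor, -2.14 with no floor, -0.25 with the offset and -0.30 with the offset after matching medians by scaling, an alternative added after seeing the data. It gave no value with array medians as floor, and Flt4, Flt1 and Kdr gave none under the strict signal filter. The count of genes at least 2-fold higher went from 472 to 1675 with no floor, 212 with the offset and 297 under the strict filter. The count at least 2-fold lower went from 1041 to 624 with the common floor, 2770 with no floor, 154 with the offset, 76 with its scaled form, 596 with quantile and 571 with loess normalization and 298 under the strict filter. Higher genes made up 31.2% of those 2-fold apart as reported, 51.1% with quantile and 52.8% with loess normalization, 44.6% with centred ratios, 57.9% with the offset and 86.3% with its scaled form. The median log2 ratio of all genes above background, -0.04 as reported, was 0.08 with centred ratios or the offset and 0.10 with its scaled form. Among the member and pathway lists, medians moved for the members (1.40 under the strict filter, where only the neuropilins remain), the ligands (-0.068 with the offset, 0.12 scaled), the semaphorins (-0.0044 with the offset, 0.066 scaled, 0.25 strict) and the VEGF-induced genes (-0.37 with no floor). The strict semaphorin median rests on Sema3c and Sema3f alone. The plexin median changed by less than the SD of 0.50 that served as the limit. It still shrank from -0.51 to -0.14 with quantile and -0.12 with loess normalization, -0.059 with the offset and -0.039 scaled. Among marker lists, medians moved for lymphatic (0.52 to -1.22 with no floor and -0.034 with the scaled offset), leukocyte (0.07 to 0.62 strict), pericyte (-0.47 to 0.06 scaled), Schwann (-0.96 to -0.24 with the offset and -0.20 scaled) and keratinocyte markers (-0.08 to 0.31 scaled); where no construction is named, the cause was not tested. No paired analysis was possible because there is 1 array per genotype and the labels give no replicate numbers, and for the same reason no replicate could be left out. Signal near or below background limits Flt1 and Flt4, and Kdr on the wild-type array. On that array it also limits the Nrp1 probe sets 1448944_at and 1457198_at and the Nrp2 probe set 1447343_at.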
